A study of Homo sapiens with 8 samples.

Results

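The members described here are 3829 endogenous protein-coding transcripts whose first extended region, the stretch past the annotated stop, carried a moderate footprint density in HEK293T cells. They were taken from 82586 entries in 2 steps. Coding density had to average at least 10 RPKM over the 8 libraries, which 12974 endogenous protein-coding transcripts did. RPKM scales reads to the length of the region and to the total reads of the library. The ratio, mean first extended density over mean coding density in the 4 HEK293T libraries, then had to be at least 2% and under 10%, which kept 29.5% of them. Of the other transcripts, 6232 had a lower and 2913 a higher ratio.

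Ribosome footprints were sequenced in 4 groups of 2 libraries. Transgenic cells, HEK293T cells with a stable transfection of Mb pyltRNA, were profiled with NAEK at 1 mM and without it. HEK293T cells, a human embryonic kidney line, were profiled in the same 2 states. NAEK is the supplied amino acid, an azide-bearing lysine derivative. Labels give neither the number of clones in the transgenic line nor the source of the replicates, so each p-value reflects the spread between the libraries at hand, technical spread included. Libraries held 12923243 to 20569590 reads. The synthetase transgene had 5538 to 5820 RPKM in transgenic and 7.24 to 11.4 RPKM in HEK293T libraries. The coding region of the GFP39 transgene had 6264 and 6980 RPKM in transgenic +NAEK and 3664 and 3761 RPKM in transgenic -NAEK libraries. In HEK293T libraries it had 8.15 to 21.7 RPKM. Neither the deposited tables nor the reference tables used here pair the transcript IDs with gene names, stop codons or sequences, so members are given by ID or by the length of their region, and cell type markers were not checked.

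A translating ribosome normally leaves the mRNA at the stop codon, and some ribosomes pass a stop and continue to the next one in frame, at a rate that differs between stops. Suppressor systems raise that rate at 1 kind of stop codon. In the pyrrolysine system, a dedicated synthetase loads an added amino acid onto its own tRNA, which then reads the amber codon UAG.

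Because HEK293T values chose the members, their HEK293T ratios are a description. Both states of HEK293T on their own spread wider than the rule, with 2738 members at 2 to under 10% with NAEK and 2623 without it. Members just inside the lower threshold had ratios of 2.0004 and 2.001%, and transcripts just outside had 1.9997 and 1.9992%. At the upper threshold, members had 9.998 and 9.990% and transcripts outside had 10.009 and 10.009%. At the lower threshold the members held 1 and 2 HEK293T reads and the transcripts outside 1 and 12.

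Most members rested on few reads past the stop. Over the 4 HEK293T libraries, first extended reads per member ran from 1 to 626 with a median of 5. A single read placed 546 members, and 869 had 2 or 3 reads, 1276 had 4 to 9, 982 had 10 to 49 and 156 had at least 50. These 156, called the well-covered members below, were chosen on HEK293T reads alone, so the transgenic libraries had no part in that choice. Coding regions were better covered, with a median of 27.8 RPKM.

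In transgenic cells without NAEK, 80.8% of the 156 had a ratio of 2 to under 10% over both libraries together, 15.4% were below and 3.85% above. Among members placed by a single HEK293T read, 17.9% were in that range, and 381 of 546 had 0 reads in both transgenic -NAEK libraries. Across the 156 members, the log2 ratio in transgenic -NAEK libraries correlated with that in HEK293T libraries at Pearson's r of 0.50 to 0.66. Replicates of a group correlated at 0.47 to 0.73, and transgenic +NAEK with HEK293T libraries at 0.32 to 0.51. These correlations are across transcripts, which share libraries and can share a gene.

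The best-covered member, ENST00000381342, had a ratio near the top of the range in all 4 groups, 10.2% in transgenic +NAEK, 9.23% in transgenic -NAEK, 8.24% in HEK293T +NAEK and 9.16% in HEK293T -NAEK cells. Its region of 295 nt had 29.3 and 53.5 RPKM in transgenic +NAEK, 29.1 and 40.2 RPKM in transgenic -NAEK, 18.6 and 37.3 RPKM in HEK293T +NAEK and 26.7 and 38.3 RPKM in HEK293T -NAEK libraries. The groups overlapped, and in transgenic cells the means with NAEK, 41.4 ± 17.1 RPKM, and without it, 34.6 ± 7.90 RPKM (SD, n = 2), differed by less than those spreads. The ratio was 7.49 and 12.75% in the transgenic +NAEK libraries, 7.30 and 11.40% in transgenic -NAEK, 5.90 and 10.27% in HEK293T +NAEK and 8.04 and 10.16% in HEK293T -NAEK. Replicate 2 was above replicate 1 in all 4 groups, in density and in ratio, so the SDs above include a shared order of the replicates. The change with NAEK in transgenic cells was 0.21 on the log2 scale (SE 0.46, limma adjusted p = 0.937).

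Among the 10 members with the most HEK293T reads, 4 had a region of 198 nt and near-equal reads. Their first extended reads were 117 to 138 and 67 to 103 in the transgenic +NAEK libraries, 142 to 150 and 98 to 122 in transgenic -NAEK, 200 to 250 and 83 to 100 in HEK293T +NAEK, and 151 to 194 and 91 to 108 in HEK293T -NAEK. In all 4 groups, replicate 1 was above replicate 2 for each of the 4. Whether they are isoforms of 1 gene that divide the same reads could not be told from the files, and members are not independent of each other. Over all members, 363 had values past the stop that were identical to another member's in all 8 libraries.

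Summed over all members, footprints past the stop were more frequent with NAEK in transgenic cells. First extended reads came to 0.333 and 0.336% of the members' coding reads in transgenic +NAEK libraries (95% exact intervals 0.328 to 0.339% and 0.329 to 0.343%), against 0.252 and 0.256% in transgenic -NAEK libraries (0.247 to 0.257% and 0.251 to 0.261%). The groups did not overlap, and their means, 0.335 ± 0.0016% and 0.254 ± 0.0026% (SD, n = 2), differed 1.32-fold, by more than the spread between replicates. HEK293T libraries held 0.280 and 0.337% with NAEK (0.275 to 0.285% and 0.331 to 0.344%) and 0.306 and 0.317% without it (0.301 to 0.312% and 0.311 to 0.322%), so there the 2 states overlapped and the replicates with NAEK were furthest apart. These intervals account for counting alone, as PCR duplicates are no independent molecules. They are shares of reads and not ratios of densities.

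**Figure D1:**
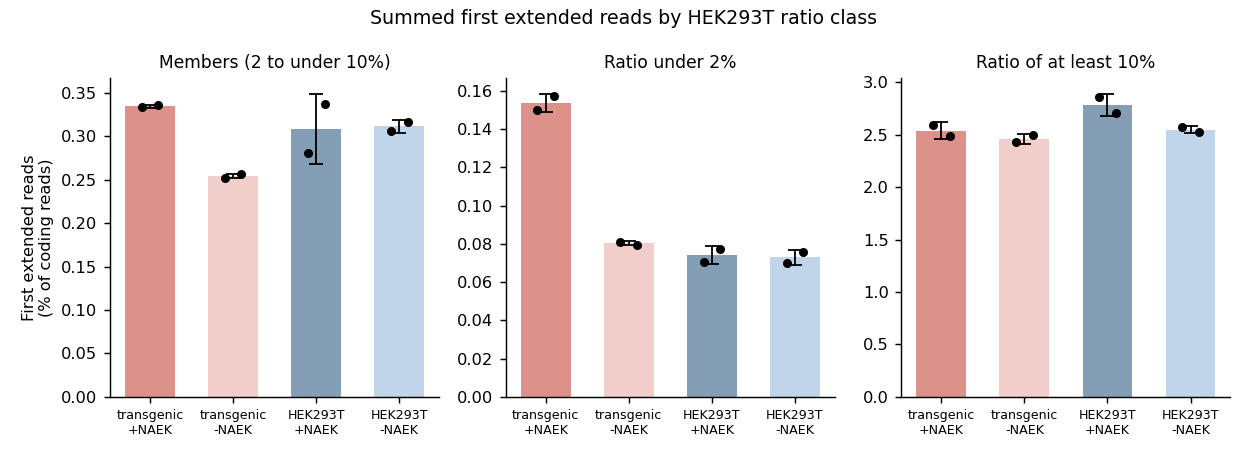
First extended reads in percent of coding reads, summed over the members (2 to under 10% in HEK293T), the 6232 transcripts under 2% and the 2913 with at least 10%, by group. Points are libraries, bars are means and error bars are SD (n = 2); members averaged 0.335% in transgenic +NAEK against 0.254% in transgenic -NAEK libraries, and the vertical scales differ between panels.

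The same share was taken in the classes below and above the members. In transcripts under 2% in HEK293T, it averaged 0.154 ± 0.0049% in transgenic +NAEK and 0.0803 ± 0.0011% in transgenic -NAEK libraries (SD, n = 2), 1.91-fold higher. In those of at least 10% it averaged 2.54 ± 0.079% in transgenic +NAEK and 2.46 ± 0.049% in transgenic -NAEK libraries, 1.03-fold higher, and here the libraries of the 2 states overlapped. The differences were 0.0803 percentage points for members, 0.0734 for the lower and 0.0793 for the higher class. In HEK293T cells the higher class held 2.86 and 2.71% with NAEK against 2.57 and 2.53% without it, which did not overlap and differed by 0.235 points (1.09-fold), beside -0.0025 points in members and 0.001 in the lower class. The classes were cut on HEK293T ratios and no test compared them.

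Within the members, libraries of the 2 NAEK states overlapped at the median and not in the upper part. The median ratio was 2.22 and 1.62% in transgenic +NAEK and 1.80 and 1.98% in transgenic -NAEK libraries, which overlapped. The upper quartile was 6.87 and 6.81% with NAEK against 5.43 and 5.55% without it. A ratio of at least 10% was reached by 628 and 657 members with NAEK (16.4 and 17.2%) and by 396 and 419 without it (10.3 and 10.9%), a difference of 6.14 percentage points, which was 2.88 points in the well-covered members. Over all 12974 transcripts the share averaged 21.3% with NAEK against 18.4% without it. In HEK293T libraries 411 and 621 members (10.7 and 16.2%) were at 10% or more with NAEK and 491 and 589 (12.8 and 15.4%) without it, which overlapped. At least 20% was reached by 218 and 252 members with NAEK and by 90 and 98 without it. Ratios of 0 stood at 1566 and 1782 members with NAEK and 1647 and 1607 without it, which overlapped.

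Counted in both libraries of a group at once, 281 members (7.34%) were at 10% or more in transgenic +NAEK and 110 (2.87%) in transgenic -NAEK cells. Over all 12974 transcripts the shares were 13.8% with NAEK and 11.8% without it. At 20% or more in both libraries there were 97 members in transgenic +NAEK and 12 in transgenic -NAEK cells, and 0 of 3829 in either HEK293T group, where the rule kept high ratios out. Of all 12974 transcripts, 8.76% reached it in transgenic +NAEK, 7.83% in transgenic -NAEK, 9.3% in HEK293T +NAEK and 8.94% in HEK293T -NAEK cells. In HEK293T cells, 56 members were at 10% or more in both libraries with NAEK and 65 without it, beside 14.0% and 13.7% of all transcripts.

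**Figure D2:**
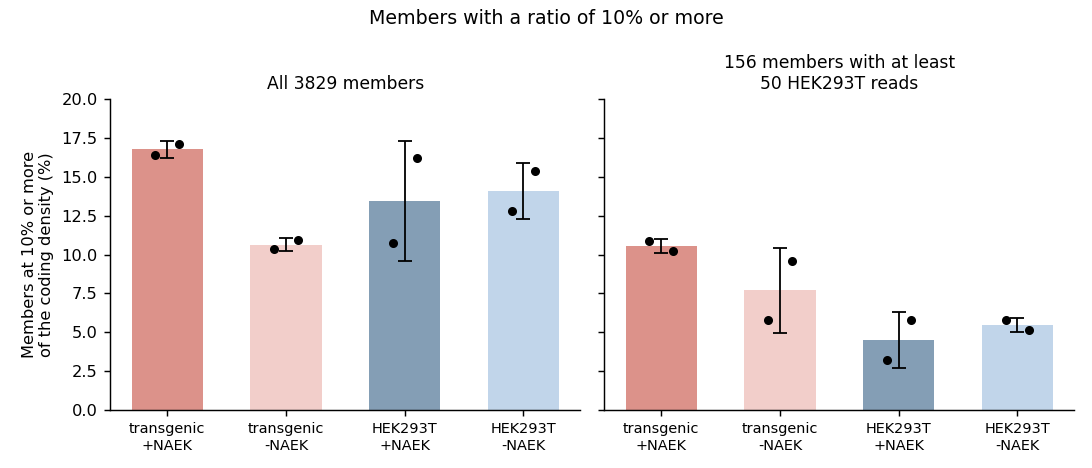
Share of members with a first extended density of at least 10% of the coding density, by group, for all 3829 members and for the 156 with at least 50 HEK293T reads. Points are libraries, bars are means and error bars are SD (n = 2); over all members the share averaged 16.8% in transgenic +NAEK and 10.6% in transgenic -NAEK libraries.

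Among well-covered members, at least 10% was reached by 17 and 16 of the 156 in transgenic +NAEK, 9 and 15 in transgenic -NAEK, 5 and 9 in HEK293T +NAEK and 9 and 8 in HEK293T -NAEK libraries. The median over the 2 libraries together was 3.90% in transgenic +NAEK and 3.82% in transgenic -NAEK cells. From one NAEK state to the other, 18 of the 156 were at least 2-fold higher and 9 at least 2-fold lower with NAEK in transgenic cells, over a log2 range of -1.74 to 3.28. In HEK293T cells 1 was 2-fold higher and 0 lower, over a log2 range of -0.98 to 1.52. HEK293T ratios and reads chose the 156, which bounds their HEK293T values only, so the 2 lines are not compared on equal terms.

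**Figure D3:**
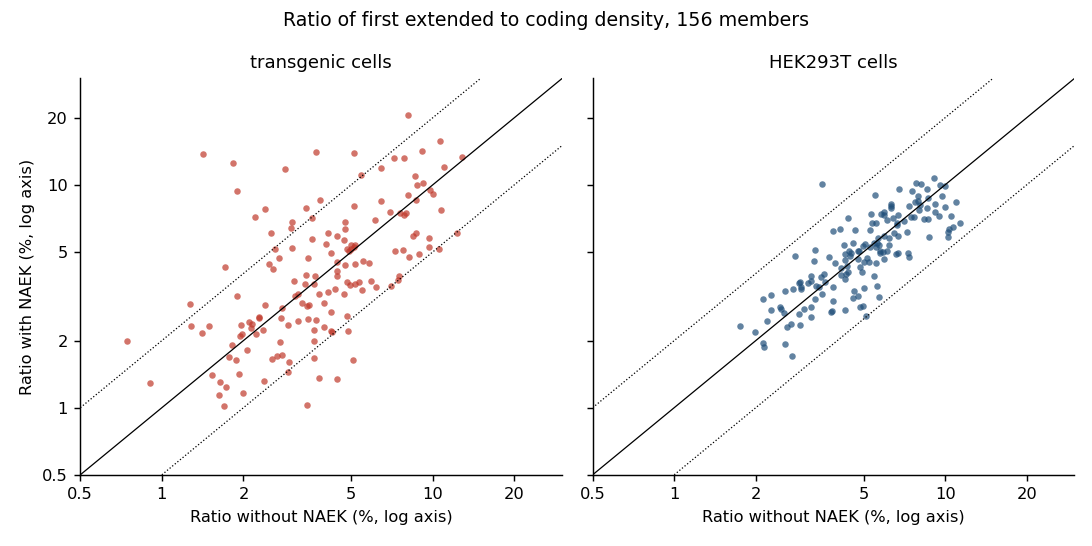
Ratio of first extended to coding density with NAEK against the ratio without it, both in percent on log axes, for the 156 members with at least 50 HEK293T reads, in transgenic (left) and HEK293T cells (right). The solid line marks equal ratios and the dotted lines 2-fold differences; in transgenic cells 18 members lie at least 2-fold above and 9 at least 2-fold below, and the HEK293T libraries of the right panel chose the members.

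Libraries of the 2 NAEK states did not overlap in the ratio for 629 members that were higher with NAEK in transgenic cells (16.4%) and for 388 that were lower (10.1%). Over all 12974 transcripts these shares were 13.5% and 8.12%. Among well-covered members, 33 were higher (21.2%) and 26 lower (16.7%), close to the 20.3% and 16.4% of all 873 transcripts with as many HEK293T reads. In HEK293T cells, 491 members were higher (12.8%) and 466 lower (12.2%) without overlap, beside 8.95% and 8.18% of all transcripts. Members were above the share of all transcripts in both lines and both directions, a share that includes the lower class. There 11.4% were higher and 4.54% lower in transgenic cells, and 4.46% and 4.33% in HEK293T cells. Ratios of 0 made up 65.7 to 77.1% of that class by library, and a region at 0 in all libraries of a line cannot separate. In the higher class 14.3% were higher and 13.1% lower in transgenic cells, and 13.5% and 11.2% in HEK293T cells. Of the well-covered members 15 were higher (9.62%) and 20 lower (12.8%) in HEK293T cells, beside 14.2% and 10.1% of the 873.

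Single regions were tested with limma on log2(RPKM + 1) in 1 fit over 8 libraries and 7801 first extended regions. A transcript entered with a mean of 50 coding reads and, summed over the libraries, 10 first extended reads. Of the members, 1876 met this and 1953 did not. With NAEK in transgenic cells 24 members rose and 3 fell at an adjusted p under 0.05. Transgenic +NAEK reads counted toward the minimum of 10, so a region high there could enter on those reads. A called rise of 30 nt had 13 reads over the 8 libraries, 1 of them in HEK293T and 0 in transgenic -NAEK cells. The 24 and 3 are therefore no even comparison of directions. Of all regions tested 1.74% were called, 1.60% as rises and 0.141% as falls, and members 1.28% and 0.160%. The median log2 change was 0.10 over members tested and 0.07 over all regions. In the lower class 76 of 1023 regions rose and 0 fell, and in the higher class 4 of 2035 rose and 7 fell.

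The calls depended on the libraries and the model fitted. With the 4 transgenic libraries alone, 0 members passed, with 195 higher and 67 lower at an unadjusted p under 0.05. The lowest limma adjusted p was 0.259. With replicate number as a block within each cell line, 0 members passed either, and the lowest limma adjusted p was 0.142. There 198 members were higher and 79 lower at an unadjusted p under 0.05. Without transgenic +NAEK replicate 1, 3 members rose and 4 fell, and without any 1 of the other 7 libraries 0 members passed, with 165 to 212 members higher and 54 to 76 lower at an unadjusted p under 0.05. With at least 50 reads in the region, 17 of 343 members (4.96%) rose and 0 fell, beside 1.78% and 0.112% of 2690 regions. In the lower class 24 of 128 rose and 0 fell, and in the higher class 6 of 918 rose and 2 fell. Reads of all 8 libraries, transgenic +NAEK included, counted toward the minimum of 50.

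ENST00000303577 had the lowest p among the rises. Its region of 60 nt had 81.3 and 100.6 RPKM in transgenic +NAEK, 6.71 and 4.54 RPKM in transgenic -NAEK, 7.29 and 10.3 RPKM in HEK293T +NAEK and 12.6 and 15.1 RPKM in HEK293T -NAEK libraries. Transgenic +NAEK libraries stood far above the other 6, which lay between 4.54 and 15.1 RPKM. That is 84 and 78 reads with NAEK in transgenic cells against 7 and 5 without it, and a ratio of 22.3 and 25.3% against 1.78 and 1.11%. Mean density was 91.0 ± 13.6 RPKM in transgenic +NAEK and 5.62 ± 1.54 RPKM in transgenic -NAEK libraries (SD, n = 2), 16.2-fold higher, with a log2 change of 3.81 (SE 0.37, limma adjusted p = 0.0354). The log2 change of its coding density was -0.04 (limma adjusted p = 0.987). Its second extended region had 25 and 27 reads in transgenic +NAEK, 1 and 2 in transgenic -NAEK, 5 and 0 in HEK293T +NAEK and 0 and 1 in HEK293T -NAEK libraries (log2 change 4.05, SE 1.09, limma adjusted p = 0.542 for NAEK in transgenic cells). There too both transgenic +NAEK libraries stood above the other 6. Of 16 alternatives, 7 kept it past the threshold, and the highest adjusted p was 0.259 in limma.

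ENST00000620947 came next, on far fewer reads. Its region of 24 nt had 8 and 8 reads in transgenic +NAEK and 0 and 0 in transgenic -NAEK libraries, with 2 and 3 in HEK293T +NAEK and 0 and 0 in HEK293T -NAEK libraries. Against a floor of 3 reads over both transgenic -NAEK libraries its density was at least 6.46-fold higher with NAEK. The fitted log2 change of 4.55 (limma adjusted p = 0.0354) depends on the pseudocount, and it passed under 6 of 15 alternatives. In the third, 105 nt long, there were 43 and 41 reads in transgenic +NAEK and 1 and 0 in transgenic -NAEK libraries, with 6 and 2 in HEK293T +NAEK and 2 and 3 in HEK293T -NAEK libraries.

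All 24 rises had a ratio of at least 13.7% over both transgenic +NAEK libraries, with a median of 34.4% against 0.644% in transgenic -NAEK, 3.68% in HEK293T +NAEK and 3.34% in HEK293T -NAEK cells. They were chosen on transgenic values, so these ratios are a description. Of the 24, 21 were over 20% with NAEK. Reads without NAEK were few, with 11 regions at 0 reads in both transgenic -NAEK libraries and 10 more at 1 to 3. Region lengths ran from 24 to 219 nt with a median of 90 nt, and 3 of the 24 shared a length of 201 nt. Of the 24, 1 was among the well-covered members, with a region of 114 nt and a ratio of 13.7% in transgenic +NAEK, 1.42% in transgenic -NAEK, 3.49% in HEK293T +NAEK and 2.94% in HEK293T -NAEK cells (log2 change 2.87, limma adjusted p = 0.0416).

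**Figure D4:**
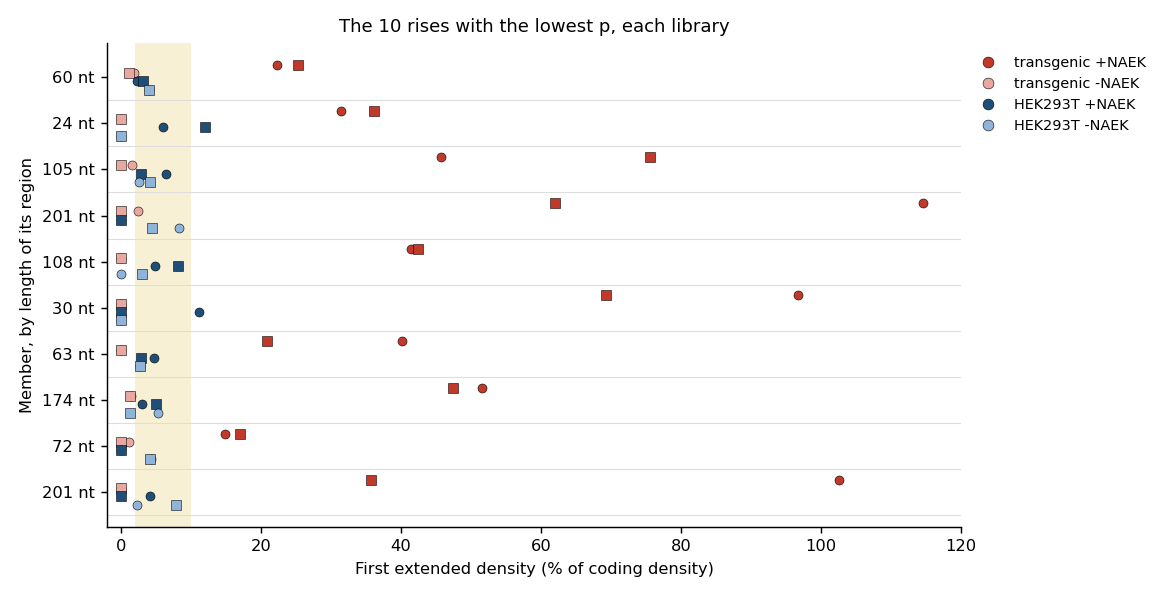
First extended density in percent of coding density in every library (circles replicate 1, squares replicate 2) for the 10 members with the lowest p among those higher with NAEK in transgenic cells, in order of p from the top and labelled by region length. The shaded band marks 2 to 10%; transgenic +NAEK libraries lie between 14.9 and 114.6%, and all transgenic -NAEK libraries at 2.40% or less.

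The 3 falls rested on single-digit reads. ENST00000452404, whose region was 45 nt, had 0 and 0 reads in transgenic +NAEK, 4 and 4 in transgenic -NAEK, 2 and 2 in HEK293T +NAEK and 1 and 1 in HEK293T -NAEK libraries. ENST00000304786, whose region was 9 nt, had 0 and 0 reads in transgenic +NAEK, 4 and 2 in transgenic -NAEK, 4 and 8 in HEK293T +NAEK and 6 and 2 in HEK293T -NAEK libraries. With a floor of 3 reads, densities were at least 2.25-fold and at least 1.70-fold lower with NAEK (limma adjusted p = 0.0406 for each). These passed under 2 and 1 of 15 alternatives. In the third fall, 30 nt long, there were 0 and 0 reads in transgenic +NAEK against 2 and 3 in transgenic -NAEK libraries.

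ENST00000373365 was well covered and did not pass. Its region of 240 nt had 72.9 and 85.4 RPKM in transgenic +NAEK, 22.1 and 28.8 RPKM in transgenic -NAEK, 27.8 and 36.0 RPKM in HEK293T +NAEK and 27.5 and 40.9 RPKM in HEK293T -NAEK libraries. Its transgenic +NAEK libraries held 301 and 265 reads and stood above the other 6. The log2 change was 1.61 (SE 0.33, limma adjusted p = 0.0679), past the threshold under 3 of 16 alternatives. Of the 10 members with the most HEK293T reads, none passed for NAEK in transgenic cells.

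Relative to the coding region, no member passed. For the log2 ratio, with 1 RPKM added to both densities, limma called 0 of 1876 members and 0.0128% of 7801 regions, with 205 members higher and 69 lower at an unadjusted p under 0.05. The lowest adjusted p among members was 0.0583. With at least 50 reads in the region 15 of 343 members (4.37%) rose and 0 fell, beside 1.60% and 0.112% of 2690 regions. In the lower class 22 of 128 rose and 0 fell, and in the higher class 4 of 918 rose and 2 fell. Transgenic +NAEK reads counted toward that minimum, so regions high there could pass it on those reads. The log2 median over the 1876 members was 0.09.

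Coding density was tested in the same way. Of 3829 coding regions limma called 0 in transgenic cells, as over all 46156 regions (0.0%), with 117 higher and 78 lower at an unadjusted p under 0.05 and 0 called by voom. The median log2 change was 0.02.

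In HEK293T cells 0 of 1876 members were called for NAEK, and 0.0% of all 7801 regions, with 52 higher and 48 lower at an unadjusted p under 0.05 and 0 called by voom. The median log2 change of the ratio was -0.01. These are given as a description, since the rule used these libraries. The difference between the lines in their NAEK change was not tested for this reason.

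Second extended regions, which lie past the next stop, were not used by the rule. Members held second extended reads of 0.119 ± 0.0079% of coding reads in transgenic +NAEK, 0.112 ± 0.013% in transgenic -NAEK, 0.125 ± 0.0077% in HEK293T +NAEK and 0.105 ± 0.0035% in HEK293T -NAEK libraries (SD, n = 2). The transgenic difference was smaller than the spread between replicates. In HEK293T cells the libraries did not overlap, with 0.130 and 0.120% with NAEK against 0.107 and 0.102% without it, 1.19-fold higher, and the difference between the lines was not tested. Of the members 44.1% had any second extended read, against 32.2% of the lower and 57.3% of the higher class. Of 351 members with enough reads there, limma called 0 for NAEK in transgenic cells, beside 0.0618% of 3238 regions (0.0309% higher and 0.0309% lower), with 15 higher and 13 lower at an unadjusted p under 0.05 and 0 called by voom.

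Region length was not used by the rule. Among transcripts whose region held 50 reads or more in all, the median was 96 nt in 343 members, 150 nt in 128 transcripts of the lower class and 57 nt in 955 of the higher class. Lengths were whole codons in 97.7% of these members, 94.5% of the lower and 96.0% of the higher class. Regions of at most 30 nt were 11.7% of the members, 0.781% of the lower and 30.6% of the higher class. A minimum of reads favours long regions, and it does so unequally by class. At a like coding density, a region with a lower ratio must be longer to hold 50 reads. The minimum thus favours long regions most in the lower class and least in the higher class. The order of lengths between the classes cannot be read apart from this minimum, so these values are a description.

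Well-covered members were also split by the length of the region. In the 74 members over 90 nt the median ratio was 4.80% in transgenic +NAEK and 3.75% in transgenic -NAEK cells, and 13 were at least 2-fold higher and 2 at least 2-fold lower with NAEK. In the 52 members of 31 to 90 nt the medians were 3.20% in transgenic +NAEK and 3.68% in transgenic -NAEK cells, with 4 higher and 3 lower. In the 30 members of at most 30 nt they were 3.49% in transgenic +NAEK and 4.59% in transgenic -NAEK cells, with 1 higher and 4 lower. HEK293T medians lay between 4.70 and 5.26% in each length class and NAEK state. No test compared the length classes. Members of like length can be isoforms that share a region, so these counts are not of independent regions. The share of equally covered transcripts outside the members was not taken by length.

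**Figure D5:**
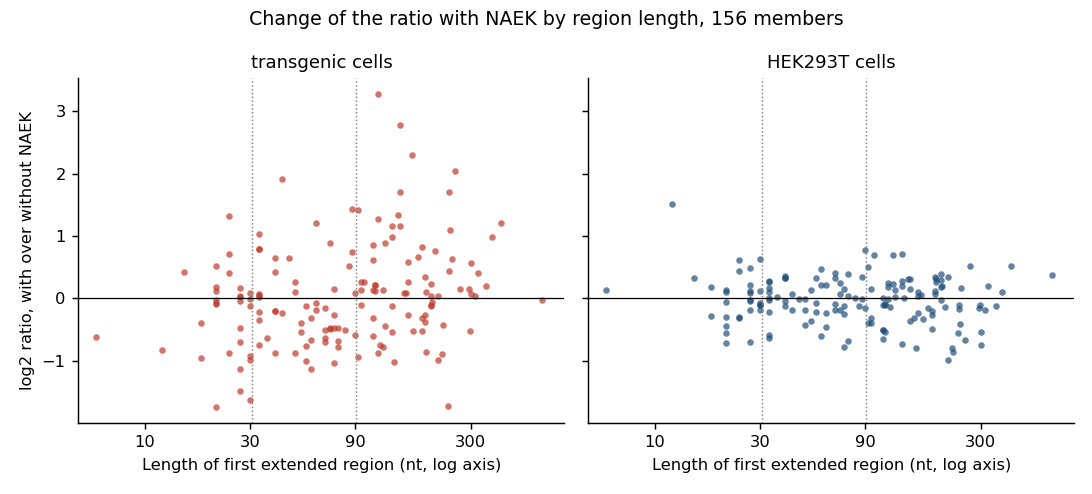
Log2 ratio with NAEK over the ratio without NAEK against the length of the first extended region (nt, log axis) for the 156 members with at least 50 HEK293T reads, in transgenic (left) and HEK293T cells (right). Dotted lines part the length classes at 30 and 90 nt. In transgenic cells 13 of the 74 members over 90 nt were at least 2-fold higher with NAEK and 2 at least 2-fold lower. At 30 nt or less, 1 of 30 was higher and 4 were lower, and no test compared the classes.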

How the data were processed

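The authors deposited RPKM per transcript for coding, first extended and second extended regions in 4 tables, 1 per group, per the file headers. A TruSeq Ribo Profile kit was used, per the labels' protocols. The submitters' processing notes name Bowtie 1.2.2 and hg38. The annotation and the handling of reads shared by isoforms were not given in the sources used here. Extended regions were read as the stretches between the coding stop and the next stops. Whole reads and region lengths were recovered from the RPKM, using the 1290 nt of the synthetase entry, and 100.0% of regions above 0 came out whole within 2e-05 reads plus 1e-07 of the count. Lengths recovered this way are the shortest possible, so thin regions can be longer than given. These reads served for depth, summed shares, minimums and voom only. The floor was 3 reads, or up to 2.32e-05% of a library's total.

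Tests used limma 3.58.1 (R 4.3.3) on log2(RPKM + 1), a variance trend and Benjamini-Hochberg adjustment over all regions, group as the only factor. The fold change understates low values. The coding fit needed a mean of 1 RPKM. The step was tested on simulated data. Since the files hold RPKM, the count test provided for in the design was not used. Named are the 10 members with the lowest p in each direction, the 10 with the most HEK293T reads and those next to each threshold, with at most 2 IDs per direction. Gene lists and markers could not be matched and are not reported. Members and lists were chosen with earlier results of these data known. Summaries and figures used scipy 1.17.1, pandas 2.3.3, numpy 2.4.6 and matplotlib 3.10.9 under Python 3.11.15.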

Additional observations from a re-analysis of the deposited data

Results flagged for a closer look

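Among 30 named members, 7 changed with NAEK in opposite directions in the 2 lines, with no overlap between the libraries of the 2 NAEK states in either line. The difference was not tested. Neither the share over all regions nor the named members that moved the same way were counted. ENST00000620947 rose in both lines without overlap, with log2 changes of 4.55 in transgenic and 2.73 in HEK293T cells. Of the 30, 10 in each direction were picked by p in transgenic cells, which favours separation there, and HEK293T values chose the members. The 7 are therefore no measure of how often the lines differ. Values are the log2 change of first extended density in transgenic minus that in HEK293T cells. Among members higher with NAEK in transgenic cells it was 4.42 for ENST00000303577, 4.10 for a region of 201 nt and 5.24 for one of 72 nt. Among those lower with NAEK it was -3.18 for ENST00000452404, -5.35 for a region of 30 nt, -5.02 for one of 27 nt and -3.09 for one of 48 nt, each with at most 6 reads in any library.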

How the results depend on the processing

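The 27 members called for first extended density in transgenic cells became 3 with a pseudocount of 0.1, 53 with 5, 4 with no read minimum, 17 with at least 50 reads, 0 when only the 4 transgenic libraries were fitted and 78 under voom. Leaving out 1 library gave 0 to 7. With no variance trend 19 were called, within 1.5 times. With the replicate block there were 0. Over all regions, 136 calls became 21 of 7801 with a pseudocount of 0.1 and 226 of 7801 with 5. They became 80 of 30507 with no read minimum and 51 of 2690 with at least 50 reads. Voom called 274 of 7801 and the fit with no variance trend 76, and the other 2 settings named called 0. Members tested were 3788 with no read minimum, 343 with at least 50 reads and 1876 otherwise. The labels do not say whether replicate numbers pair the samples, and the main fit did not use them. Deviations of same-numbered libraries correlated at 0.01 to 0.08 in first extended and 0.05 to 0.32 in coding regions. Across well-covered members, ratios of HEK293T +NAEK and -NAEK libraries correlated at 0.71 and 0.66 for like numbers and 0.56 and 0.52 for unlike ones. In transgenic cells these were 0.53 and 0.52 against 0.54 and 0.37. Whether same-numbered libraries share a batch could not be told. The cause of the changes in the counts was not tested. For the ratio, 0 called members became 6 with a pseudocount of 0.1, 12 with 5, 17 with no read minimum, 15 with at least 50 reads and 12 with no variance trend, and 0 under the replicate block. Over all regions these were 34, 38, 131 of 30507, 46 of 2690, 42 and 0. In HEK293T cells, with no read minimum, 0 called members became 4 for density and 9 for the ratio, beside 76 and 64 of all 30507 regions.

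Median ratios moved with coverage. With distinct regions they were 2.43% in transgenic +NAEK and 2.29% in transgenic -NAEK cells. With a coding minimum of 50 RPKM they were 2.84% in transgenic +NAEK, 2.80% in transgenic -NAEK and 3.97% in HEK293T -NAEK cells. With at least 50 HEK293T reads they were 3.67, 3.79, 4.71 and 4.97% in transgenic +NAEK, transgenic -NAEK, HEK293T +NAEK and HEK293T -NAEK cells. Leaving out 1 library gave 1.62 to 2.22% in transgenic +NAEK, 1.80 to 1.98% in transgenic -NAEK, 3.03 to 3.98% in HEK293T +NAEK and 3.17 to 3.59% in HEK293T -NAEK cells. Members without overlap in transgenic cells were 33 higher and 26 lower of 156 with at least 50 HEK293T reads (21.2 and 16.7%). All 873 transcripts with as many reads had 20.3 and 16.4%. With a coding minimum of 50 RPKM, 209 of 1118 members were higher and 160 lower (18.7 and 14.3%). In HEK293T cells these were 169 and 161 (15.1 and 14.4%). The share of all transcripts at that coding minimum was not taken, so these counts cannot be read as particular to members. For the share at 10% or more, whose alternatives were chosen after seeing the data, the difference was 2.88 percentage points with at least 50 HEK293T reads, 3.58 with a coding minimum of 50 RPKM and 5.76 to 6.52 without 1 library.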
